A study of Mus musculus with 6 samples.

Results

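The metzincins are zinc-dependent proteases that act outside the cell or at its surface, and the TIMPs (tissue inhibitors of metalloproteinases) are their protein inhibitors. Their members here were the 85 protein-coding genes, of 39089 genes in the deposited table, whose symbols begin with Mmp, Adam, Adamts or Adamtsl followed by a digit, or are Timp1 to Timp4. These were 23 matrix metalloproteinase (MMP) genes, 34 ADAM genes, 19 ADAMTS genes, 5 ADAMTS-like (ADAMTSL) genes and 4 TIMP genes. They were read by RNA sequencing in the corneal limbus, the rim of the cornea that holds the stem cells of its epithelium. The L-733,060 group was 3 samples from wild-type mice that had subconjunctival L-733,060, which blocks the NK1 receptor of the neuropeptide substance P, on days 0 and 3. The control group was 3 samples from wild-type mice given sterile water by the same route, on days that the labels do not give. Limbus was taken from both groups after a week. Strain, age and the number of mice behind a sample are not given, so the p-values measure the spread between samples, which may be technical.

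MMPs cut collagens, gelatin, laminin and many secreted proteins. ADAMs are mostly anchored in the membrane and shed the outer parts of other membrane proteins, and ADAMTS proteases are secreted, bind the matrix and cut proteoglycans, procollagens and fibrillin-rich fibres. ADAMTSL proteins share the binding domains of ADAMTS but have no protease domain. In the cornea MMPs are known from wound repair, where they loosen the basement membrane and remodel the stroma, and most are made as inactive precursors, so that an RNA level does not give an activity.

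Total counts were 18708288 to 23541791 per sample, and a gene is called higher or lower where its p in the quasi-likelihood test of edgeR, adjusted by the Benjamini-Hochberg (BH) method over 15712 tested genes, was under 0.05. Levels are CPM (counts scaled to library size) with TMM scaling, at which 3 counts make 0.128 to 0.161 CPM, and levels between genes are compared only in the deposited TPM, which are counts per gene length, scaled per sample. Limbal and basal markers (Krt14, Krt15, Krt5, Trp63 and Gpha2) summed to 31359 to 38626 CPM with L-733,060 and 31966 to 37614 CPM in controls, corneal epithelial markers to 5260.4 to 5989 CPM with L-733,060 and 26645 to 36043 CPM in controls and conjunctival markers to 22919 to 28287 CPM with L-733,060 and 9878 to 11341 CPM in controls. The near-equal limbal sums hold opposite changes: Krt14 (log2 fold change 3.21) and Gpha2 (0.90) were higher, Krt5 (-0.86) and Krt15 (-0.57) lower, and Trp63 (0.16) did not pass. Of 5 corneal markers 4 were lower and 1 higher, and all 5 conjunctival markers were higher, beside every result below; their part in these results was not tested. In whole tissue, fewer cells of a type and less RNA per cell cannot be told apart.

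Of the 50 members that passed the filter on low counts, 27 were higher, 7 lower and 16 not past the threshold, beside a background in which 41.3% of all tested genes were called, 21.4% as higher and 19.9% as lower. The 10 largest rises were of the collagenases Mmp13 and Mmp8, the gelatinase Mmp9, the elastase Mmp12, the sheddases Adam8 and Adam12, the matrix proteases Adamts16, Adamts12 and Adamts4 and the inhibitor Timp1, and Adamts18, Adamts17, Adamtsl1, Timp3, Mmp28, Adam33 and Adam15 fell. Of the same 50 tested members, 20 were called and at least doubled and 7 were called and at least halved, beside 10.7% and 8.31% of all tested genes. The median log2 fold change of the tested members was 0.73, and of all tested genes -0.002. In 35 of the 50 no L-733,060 sample fell within the control range or the reverse, beside 52% of all tested genes without overlap. A member read mainly in 1 group passes the filter through that group: 10 of the 50 (Mmp7, Mmp8, Mmp9, Mmp13, Adam12, Adamts4, Adamts7, Adamts12, Adamts15 and Adamts16) reached the cutoff of 0.464 CPM in all L-733,060 samples but not in all controls, and Adamts18 did so in controls alone. Of the 37 that reached it in every sample, 18 were higher and 6 lower. These counts describe the members and do not set them apart from other genes.

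**Figure D1:**
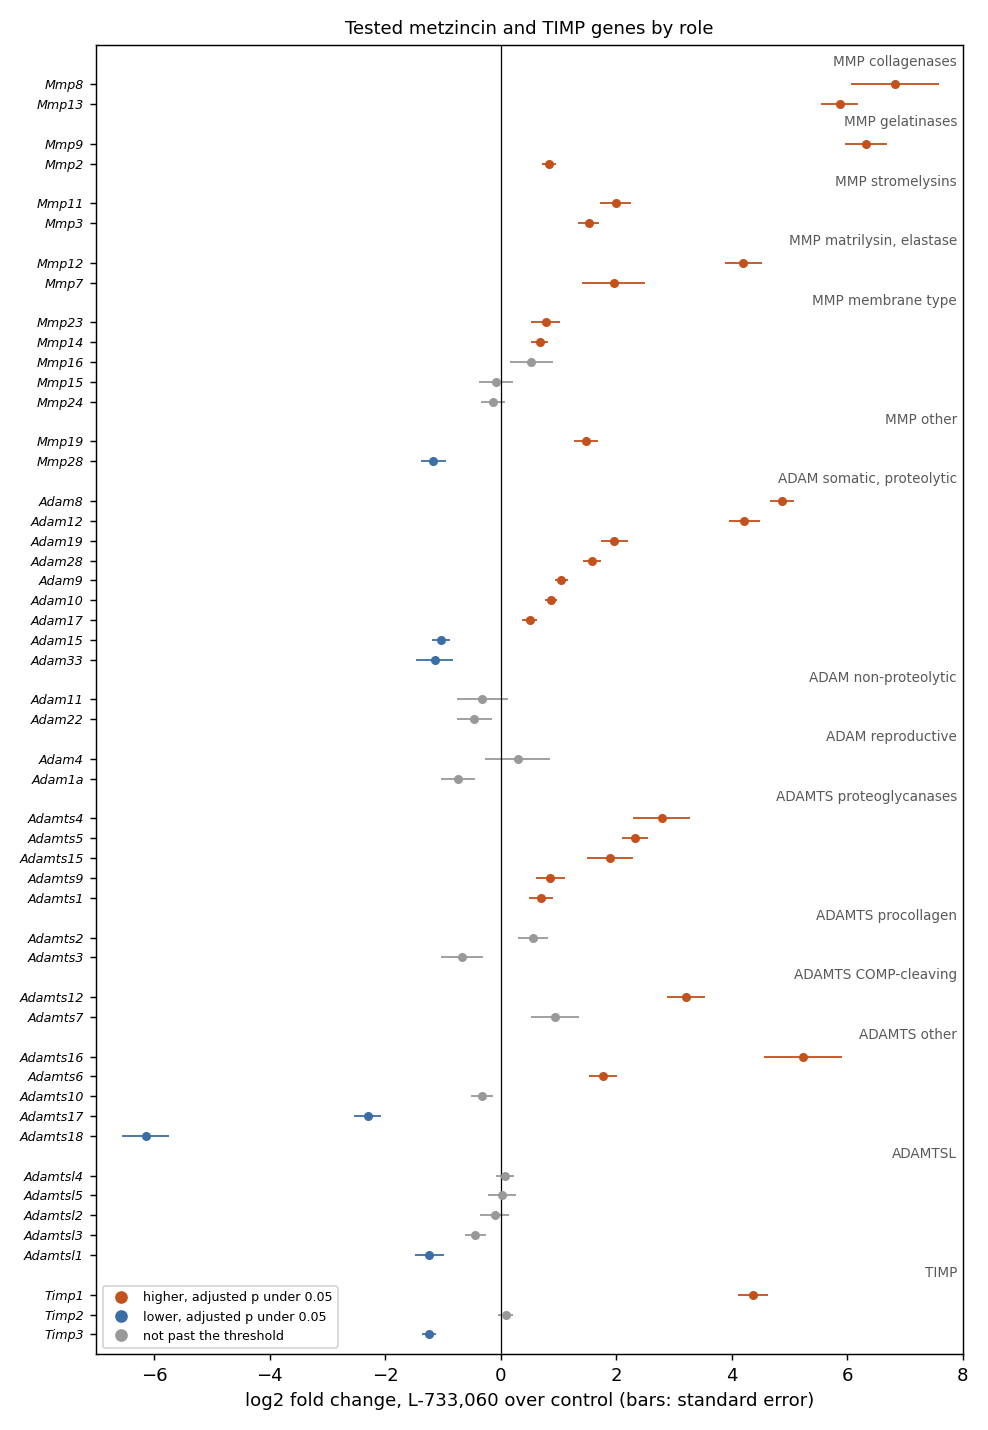
Fitted log2 fold change of L-733,060 over control for the 50 tested members, grouped by role, with bars for the standard error and colours for the call. Points right of the line at 0 are higher with L-733,060: 27 members are called higher and 7 lower, Mmp8 and Adamts18 lie at the extremes, and the fitted values of Mmp8 and Adamts16 rest on 1 and 2 control counts.

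Of the collagenases, which cut fibrillar collagen, Mmp13 and Mmp8 rose, and Mmp1a and Mmp1b, the mouse counterparts of human interstitial collagenase, had almost no reads. Mmp13 and Mmp8 passed the filter only through the L-733,060 group and so had to be higher to be tested. Mmp13, collagenase 3 (chromosome 9, 7272514 to 7283333, plus strand, mm10), measured 42.6, 40.3 and 26.1 CPM in L-733,060 samples 1 to 3, against 0.278, 0.658 and 0.898 CPM in controls 1 to 3. All L-733,060 samples lay far above all controls, with L-733,060 sample 3 the lowest of its group (log2 fold change 5.87 ± 0.32 SE, edgeR BH-adjusted p = 1.49e-07). Mmp8, the collagenase first described in neutrophils (chromosome 9, 7558429 to 7568486, plus strand), had 50, 65 and 29 counts in L-733,060 samples 1 to 3, against 0, 1 and 0 counts in controls 1 to 3. That is 144 counts against 1, a 154-fold ratio (95% interval of counting error 27.3 to 6140; edgeR BH-adjusted p = 2.84e-05), which was 99.9 without control 3 and at least 34.9-fold higher without control 2, which held that count, taking 3 counts over the controls as the limit. Mmp1b had 5 counts with L-733,060 and 1 in controls, and Mmp1a had 1 and 0.

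Both gelatinases rose, at very different levels, beside 21.4% of all tested genes called higher. Mmp9 passed the filter only through the L-733,060 group. Mmp9, gelatinase B, which cuts denatured collagen and basement membrane collagen (chromosome 2, 164940326 to 164955850, plus strand), measured 12.3, 10.6 and 7.59 CPM in L-733,060 samples 1 to 3, against 0.0925, 0.188 and 0.0855 CPM in controls 1 to 3. It was near absence in every control and read in every L-733,060 sample, lowest in sample 3 (log2 fold change 6.32 ± 0.36 SE, edgeR BH-adjusted p = 1.99e-07). Mmp2, gelatinase A, the constitutive gelatinase of stromal cells (chromosome 8, 92827290 to 92853421, plus strand), measured 62.6, 56.3 and 64.2 CPM in L-733,060 samples 1 to 3, against 31.2, 34.6 and 36.4 CPM in controls 1 to 3. The groups did not overlap and each was tight (log2 fold change 0.84 ± 0.12 SE, edgeR BH-adjusted p = 0.000193). The noncoding gene Gm45472 overlaps Mmp2 on the opposite strand and was also higher (log2 fold change 0.98, edgeR BH-adjusted p = 0.000544), and because the sources do not say whether counting used strand, its reads and those of Mmp2 cannot be told apart.

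Among the stromelysins and the other secreted enzymes, Mmp3 and Mmp11 rose. Mmp3, stromelysin 1, which cuts proteoglycans and laminin and activates other MMP precursors (chromosome 9, 7445822 to 7455975, plus strand), measured 166, 181 and 133 CPM in L-733,060 samples 1 to 3, against 41.3, 56.5 and 69.5 CPM in controls 1 to 3. Every L-733,060 sample was above the highest control (log2 fold change 1.52 ± 0.18 SE, edgeR BH-adjusted p = 5.57e-05). Mmp11, stromelysin 3, which leaves the cell already activated, measured 4.43, 6.31 and 4.29 CPM, against 1.53, 1.13 and 1.11 CPM in controls (log2 fold change 1.99 ± 0.26 SE, edgeR BH-adjusted p = 0.000111). Mmp10, stromelysin 2, was not tested, with 8, 9 and 5 counts in L-733,060 samples against 1, 2 and 0 in controls. Its ratio was 7.86, with a 95% interval of 2.36 to 41.0 from counting error, and was 16 without control 2 and 5.09 without control 3.

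Mmp12, the macrophage metalloelastase, measured 38.7, 19.5 and 21.9 CPM in L-733,060 samples 1 to 3, against 0.879, 1.88 and 1.58 CPM in controls 1 to 3. L-733,060 sample 1 held the highest level, and samples 2 and 3 were likewise above the highest control (log2 fold change 4.20 ± 0.32 SE, edgeR BH-adjusted p = 1.77e-06). Mmp7, matrilysin, which lacks the C-terminal domain of most MMPs, measured 1.49, 0.481 and 1.03 CPM, against 0.0925, 0.329 and 0.342 CPM in controls. It passed with all samples (log2 fold change 1.95 ± 0.55 SE, edgeR BH-adjusted p = 0.0137), but its adjusted p in edgeR was 0.0765 without L-733,060 sample 1 and 0.0629 without control 1. Mmp19, an enzyme of basement membrane substrates, measured 6.45, 7.33 and 7.64 CPM, against 2.91, 2.68 and 2.14 CPM in controls (log2 fold change 1.47 ± 0.21 SE, edgeR BH-adjusted p = 0.000164). Mmp28, epilysin, an MMP of epithelia and keratinocytes (chromosome 11, 83440768 to 83463040, minus strand), was the single MMP called lower, with 6.5, 5.94 and 8.98 CPM, against 19.98, 12.6 and 15.8 CPM in controls (log2 fold change -1.17 ± 0.22 SE, edgeR BH-adjusted p = 0.00108). Its groups did not overlap, and 2 genes that overlap it on the opposite strand were lower as well, 1700020L24Rik (log2 fold change -1.07) and Gm51913 (-1.42), from which its reads cannot be told apart. Mmp27, a little-studied MMP, had 33 counts with L-733,060 and 23 in controls, Mmp20 of tooth enamel 0 and 2, and Mmp21 1 and 2.

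The membrane-type MMPs moved less. Mmp14, the membrane-type enzyme that cuts collagen at the cell surface and activates the Mmp2 precursor (chromosome 14, 54431598 to 54442456, plus strand), measured 312, 272 and 373 CPM in L-733,060 samples 1 to 3, against 218, 168 and 214 CPM in controls 1 to 3. All L-733,060 samples were above all controls, and sample 3 was highest (log2 fold change 0.68 ± 0.15 SE, edgeR BH-adjusted p = 0.00351). Mmp15 (membrane type 2) measured 33, 35.9 and 85.2 CPM, against 59.6, 42.8 and 60.7 CPM in controls, so that L-733,060 sample 3 was above every control and samples 1 and 2 below every control (log2 fold change -0.08 ± 0.30 SE, edgeR BH-adjusted p = 0.856). Without sample 3 Mmp15 was called lower (log2 fold change -0.67, edgeR BH-adjusted p = 0.00194). Mmp23 measured 9.72, 5.03 and 8.71 CPM, against 4.26, 4.32 and 5.13 CPM in controls, with L-733,060 sample 2 inside the control range (log2 fold change 0.78 ± 0.24 SE, edgeR BH-adjusted p = 0.0238). Its adjusted p in edgeR was 0.112 without L-733,060 sample 1, 0.0853 without control 1 and 0.0752 without control 2, and Mib2, which overlaps it on the same strand, was lower (log2 fold change -0.86). Mmp16 and Mmp24 had log2 fold changes of 0.53 and -0.13 and did not pass (edgeR BH-adjusted p = 0.279 and 0.655), and Mmp17 and Mmp25, which are held by a lipid anchor, were not tested, with 19 and 23 counts with L-733,060 against 11 and 7 in controls.

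**Figure D2:**
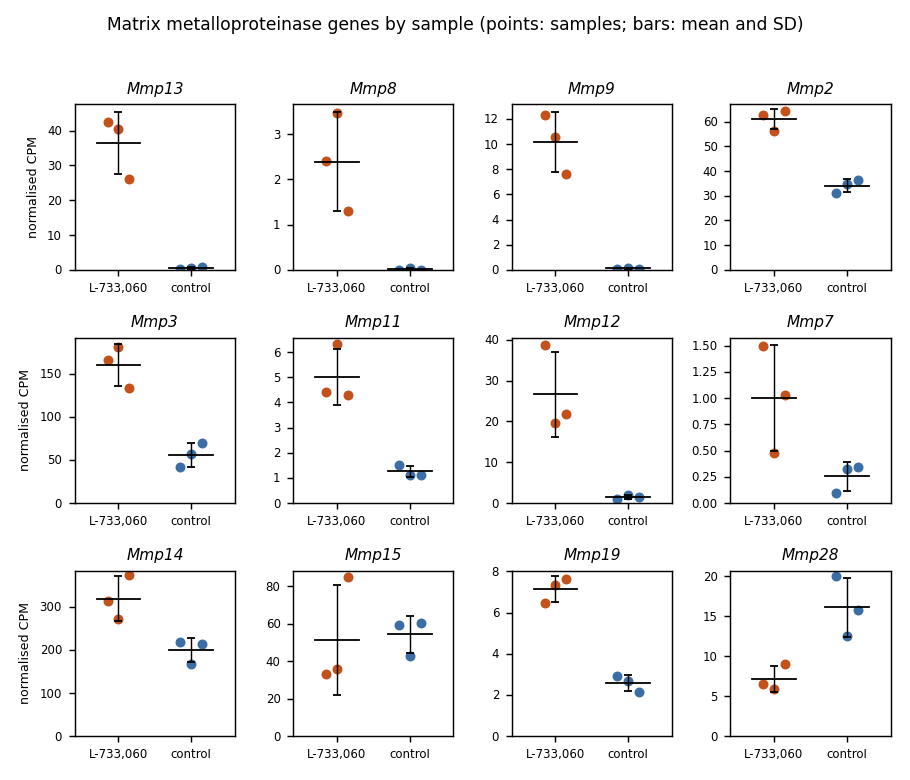
Normalised CPM of 12 MMP genes in each sample, with the mean and SD of 3 samples per group and a separate axis from 0 in each panel. The groups are apart in 11 of the 12 panels, Mmp28 is lower with L-733,060, and in Mmp15 the L-733,060 samples at 33.0, 35.9 and 85.2 CPM lie on both sides of the controls.

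Several of the enzymes with the largest rises are made by leukocytes elsewhere: Mmp8 and Mmp9 by neutrophils, Mmp12 by macrophages and Adam8 by both. In the same samples the 6 neutrophil markers summed to 288, 201 and 52.2 CPM in L-733,060 samples 1 to 3, against 4.21, 3.48 and 7.36 CPM in controls 1 to 3. S100a9 and S100a8 held most of each sum, at 197, 111 and 24.5 CPM and 53.4, 55.3 and 14.3 CPM in L-733,060 samples 1 to 3. Csf3r measured 22.15, 23.2 and 9.38 CPM and Cxcr2 10.5, 9.52 and 3.8 CPM in these samples. The sum therefore mainly follows S100a9 and S100a8. Of the 6 neutrophil markers, 4 were tested and all 4 were higher, beside 21.4% of all tested genes. Csf3r and Cxcr2 passed the filter only through the L-733,060 group and so had to be higher to be tested. Ly6g (6 counts with L-733,060 and 5 in controls) and Retnlg (136 and 1) were not tested. The 8 macrophage markers summed to 324, 338 and 285 CPM, against 65.2, 82.6 and 78.6 CPM in controls, and all 8 were higher, beside the same 21.4%. No marker of either list was at 0 in all samples. L-733,060 sample 3, lowest in the neutrophil sum and in the macrophage sum, was also the lowest L-733,060 sample for Mmp8, Mmp9, Mmp13 and Adam8, but not for Mmp12. That sample was the lowest of its group in 20 of the 50 tested members (40%) and in 38.6% of all tested genes. The share of these enzymes' rises that belongs to leukocytes was not tested.

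Of the 23 MMP genes, 10 lie in a single run on mouse chromosome 9, from 7272514 to 7699585 (mm10), a span of 427.1 kb with no other protein-coding gene. Along the chromosome they are Mmp13, Mmp12, Mmp1b, Mmp3, Mmp1a, Mmp10, Mmp8, Mmp27, Mmp20 and Mmp7. Of them 5 were tested and called higher, beside 21.4% of all tested genes, but Mmp13, Mmp8 and Mmp7 passed the filter only through the L-733,060 group and so had to be higher to be tested. Mmp12 and Mmp3 reached its cutoff in every sample. The 5 untested genes had 0 to 33 counts over the L-733,060 samples and 0 to 23 over the controls, so neighbours differed widely in level. Mmp3, at 186 ± 22.4 TPM with L-733,060 and 64.3 ± 16.2 TPM in controls (mean ± SD, n = 3 each), stands between Mmp1b and Mmp1a.

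**Figure D3:**
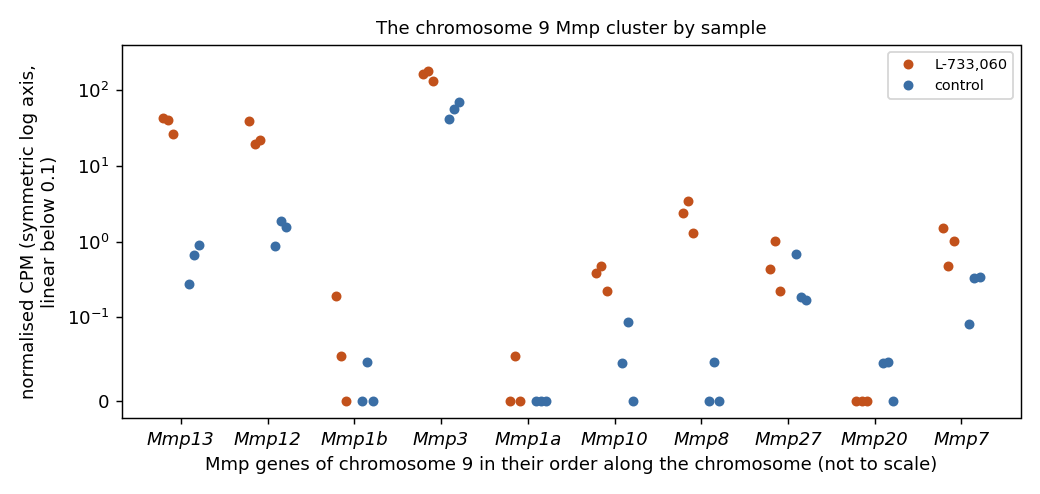
Normalised CPM in each sample of the 10 MMP genes of chromosome 9, in their order along the chromosome, on a symmetric log axis that is linear below 0.1. L-733,060 samples are above controls without overlap for Mmp13, Mmp12, Mmp3, Mmp10, Mmp8 and Mmp7, while Mmp1b, Mmp1a and Mmp20 are at or near 0 in both groups.

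Promoters of 7 genes of this run, the 5 tested with Mmp10 and Mmp1a, are shown because many MMP genes are known for a site of the transcription factor AP-1 (dimers of Jun and Fos proteins) close to their start. The stretches are the 120 bases before the annotated start, 5′ to 3′ on the gene's strand, from RefSeq for GRCm38.p6, with matches to the AP-1 letters TGANTCA in capitals.
Mmp13, chr9:7272394-7272513: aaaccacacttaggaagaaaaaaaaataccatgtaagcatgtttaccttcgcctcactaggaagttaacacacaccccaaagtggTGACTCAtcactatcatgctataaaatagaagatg
Mmp12, chr9:7344277-7344396: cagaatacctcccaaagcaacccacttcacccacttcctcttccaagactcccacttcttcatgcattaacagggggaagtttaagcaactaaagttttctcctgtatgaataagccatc
Mmp3, chr9:7445702-7445821: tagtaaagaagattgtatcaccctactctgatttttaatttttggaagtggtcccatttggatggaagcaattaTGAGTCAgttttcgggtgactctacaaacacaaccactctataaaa
Mmp1a, chr9:7464021-7464140: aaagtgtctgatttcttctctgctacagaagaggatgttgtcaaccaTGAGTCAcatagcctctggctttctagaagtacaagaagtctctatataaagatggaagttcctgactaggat
Mmp10, chr9:7502222-7502341: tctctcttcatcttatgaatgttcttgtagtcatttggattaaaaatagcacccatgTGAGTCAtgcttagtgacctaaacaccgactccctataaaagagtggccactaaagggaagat
Mmp8, chr9:7558309-7558428: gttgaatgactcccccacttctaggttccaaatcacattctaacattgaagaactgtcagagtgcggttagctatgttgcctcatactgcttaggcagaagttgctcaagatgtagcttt
Mmp7, chr9:7691970-7692089: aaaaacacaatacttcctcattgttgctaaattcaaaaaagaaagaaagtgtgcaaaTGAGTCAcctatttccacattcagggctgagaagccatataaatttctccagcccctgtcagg

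Mmp13, Mmp3, Mmp10 and Mmp7 have these letters with their first base 35, 46, 63 and 63 bases before the start. Mmp1a, which was all but unread in both groups, has them 73 bases before its start. Mmp8, which rose, and Mmp27 have none in the 250 bases searched, Mmp1b and Mmp20, like Mmp27 not printed, have them, and Mmp12 has none before the start shown but a match 44 bases before a second annotated start. Of the 85 members, 54 had such a promoter window in RefSeq, in 59 windows, and 12 genes had the AP-1 letters: 8 of the 10 in the chromosome 9 run, and Adam19, Adam20, Adam25 and Adam29 outside it. That is 20.34% of the members' windows, beside 6.75% of the 32851 windows of all genes. Among members with a window the letters stood in 5 of 16 called higher, 0 of 5 called lower, 0 of 11 not past the threshold and 7 of 22 untested. The 5 called higher were Adam19, Mmp3, Mmp7, Mmp12 and Mmp13, and all but Adam19 lie in the chromosome 9 run. Mmp7 and Mmp13 passed the filter only through the antagonist group and so had to be higher to be tested. The promoters and motifs were also chosen after the values were seen. Whether the letters go with the direction of change was therefore not tested by this split. Other letters were searched on both strands in the same 59 windows. TGTGGTT (RUNX) stood in 3 of them (Mmp13, Mmp27 and Mmp7), beside 4.4% of all windows. CAGGAAGT (ETS) stood in 2 (Timp1 and Timp4), beside 2.69%. For NF-kB only a fixed string of letters without variable bases was searched, and it stood in 0, beside 0.14%. Other forms of the NF-kB site were not searched, so their absence from these windows is not shown. On the gene's strand TATAAA stood in 11 of the 59, beside 7.59% of all windows, and no 2 matches overlapped. A match is a description of the letters, and binding was not measured here.

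Of the ADAM genes, all 9 somatic members with an active protease domain were called, 7 as higher and 2 as lower, and their groups did not overlap, beside 41.3% called and 52% without overlap among all tested genes. Adam12 passed the filter only through the L-733,060 group. Adam8, a sheddase of leukocytes and activated epithelium (chromosome 7, 139978932 to 139995207, minus strand), measured 65.3, 51.4 and 46.9 CPM in L-733,060 samples 1 to 3, against 2.31, 1.46 and 1.8 CPM in controls 1 to 3. It was low in every control and highest in L-733,060 sample 1 (log2 fold change 4.87 ± 0.21 SE, edgeR BH-adjusted p = 4.22e-08). Adam12, meltrin alpha, an enzyme of mesenchymal cells and growing muscle (chromosome 7, 133883199 to 134225097, minus strand), measured 10.7, 7.92 and 10.3 CPM in L-733,060 samples 1 to 3, against 0.509, 0.376 and 0.641 CPM in controls 1 to 3. All its L-733,060 values were above all controls (log2 fold change 4.22 ± 0.27 SE, edgeR BH-adjusted p = 4.07e-07). Adam19, meltrin beta, measured 5.49, 5.19 and 6.66 CPM, against 1.29, 1.31 and 1.8 CPM in controls (log2 fold change 1.97 ± 0.24 SE, edgeR BH-adjusted p = 5.37e-05).

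The abundant sheddases rose by smaller steps. Adam28, an ADAM of lymphocytes and epithelia (chromosome 14, 68604998 to 68655889, minus strand), measured 294, 356 and 239 CPM in L-733,060 samples 1 to 3, against 89.1, 108 and 100.1 CPM in controls 1 to 3, higher in every L-733,060 sample (log2 fold change 1.58 ± 0.15 SE, edgeR BH-adjusted p = 1.11e-05). Adam10, which sheds Notch receptors and cadherins (chromosome 9, 70678944 to 70780229, plus strand), measured 166, 167 and 173 CPM in L-733,060 samples 1 to 3, against 90.5, 93.7 and 93 CPM in controls 1 to 3. Within each group its samples lay close together (log2 fold change 0.87 ± 0.11 SE, edgeR BH-adjusted p = 6.01e-05). Adam17, the sheddase of tumour necrosis factor and of ligands of the epidermal growth factor receptor (chromosome 12, 21323509 to 21373632, minus strand), measured 170.4, 182 and 143 CPM in L-733,060 samples 1 to 3, against 109, 126 and 115 CPM in controls 1 to 3. It was higher in every L-733,060 sample than in every control, with the smallest fold of the called members (log2 fold change 0.50 ± 0.13 SE, edgeR BH-adjusted p = 0.00737). Adam9, a widely made sheddase, measured 96.4, 100.3 and 88.2 CPM, against 46.9, 47.1 and 43.6 CPM in controls (log2 fold change 1.05 ± 0.11 SE, edgeR BH-adjusted p = 2.5e-05).

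Adam15 and Adam33 fell. Adam15, metargidin, an ADAM with an integrin-binding motif in epithelium and endothelium (chromosome 3, 89339640 to 89350028, minus strand), measured 44.7, 40.3 and 56.8 CPM in L-733,060 samples 1 to 3, against 114, 84.8 and 90.7 CPM in controls 1 to 3. Every L-733,060 sample was below every control (log2 fold change -1.03 ± 0.16 SE, edgeR BH-adjusted p = 0.000322). Adam33, an ADAM of mesenchymal cells, measured 2.94, 1.28 and 1.52 CPM, against 5.32, 3.43 and 3.98 CPM in controls (log2 fold change -1.14 ± 0.32 SE, edgeR BH-adjusted p = 0.0132), and its adjusted p in edgeR was 0.0685 without control 1. Of the ADAMs without protease activity that act as neural adhesion proteins, Adam11 and Adam22 did not pass (log2 fold changes -0.32 and -0.46, edgeR BH-adjusted p = 0.595 and 0.246), and Adam23 had 21 counts with L-733,060 and 27 in controls. Of 22 ADAMs known from testis and epididymis, 11 had no counts, and those tested, Adam1a and Adam4, did not pass. Adam1a measured 3.03, 1.55 and 2.1 CPM, against 4.81, 3.52 and 2.91 CPM in controls (edgeR BH-adjusted p = 0.0624), and was called lower without L-733,060 sample 1 (adjusted p = 0.0293) or control 3 (0.0492).

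Of 14 tested ADAMTS genes, 8 rose and 2 fell, beside 21.4% of all tested genes called higher and 19.9% lower. Of those that rose, Adamts4, Adamts12, Adamts15 and Adamts16 passed the filter only through the L-733,060 group. Adamts18, which fell, passed it only through controls. Among the 7 proteoglycanases, the enzymes that cut versican and aggrecan, 5 were tested and called higher, beside 21.4% of all tested genes. Of these 5, Adamts4 and Adamts15 passed the filter only through the L-733,060 group, and of the untested Adamts8 had 22 counts with L-733,060 and 13 in controls and Adamts20 had 7 and 25. Adamts4 measured 7.41, 5.3 and 4.65 CPM in L-733,060 samples 1 to 3, against 0.648, 0.141 and 1.67 CPM in controls 1 to 3, with control 3 well above the other controls but below every L-733,060 sample (log2 fold change 2.79 ± 0.50 SE, edgeR BH-adjusted p = 0.000895). Its log2 fold change was 3.85 without control 3. Adamts5 measured 14.8, 12.2 and 9.16 CPM, against 2.17, 2.35 and 2.69 CPM in controls (log2 fold change 2.32 ± 0.22 SE, edgeR BH-adjusted p = 1.01e-05), and Adamts15 1.2, 2.41 and 1.34 CPM, against 0.509, 0.423 and 0.385 CPM in controls (log2 fold change 1.89 ± 0.39 SE, edgeR BH-adjusted p = 0.00245). Adamts1 (32.8, 19.96 and 20.7 CPM, against 12.3, 18 and 15.2 CPM in controls) and Adamts9 (2.89, 2.3 and 2.95 CPM, against 1.57, 1.6 and 1.33 CPM in controls) rose by log2 0.69 and 0.86 (edgeR BH-adjusted p = 0.0196 and 0.0179). Both calls depended on single samples in edgeR: the adjusted p of Adamts1 was 0.116 without L-733,060 sample 1, 0.0958 without control 1 and 0.0534 without control 3, and that of Adamts9 0.0644 without L-733,060 sample 1 and 0.0658 without control 3. Adamts1 and Adamts5 are neighbours on chromosome 16, within 107.3 kb and with no protein-coding gene between them.

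Adamts12, which cuts cartilage oligomeric matrix protein (chromosome 15, 11064773 to 11349232, plus strand), measured 2.65, 2.62 and 3.22 CPM in L-733,060 samples 1 to 3, against 0.324, 0.235 and 0.342 CPM in controls 1 to 3, without overlap (log2 fold change 3.21 ± 0.33 SE, edgeR BH-adjusted p = 1.69e-05). Adamts16 (chromosome 13, 70727798 to 70841845, minus strand), a member whose known roles are in kidney and gonad, had 27, 28 and 28 counts in L-733,060 samples 1 to 3, against 2, 0 and 0 counts in controls 1 to 3. The ratio of 44.5 has a 95% interval of 11.9 to 373 from counting error (edgeR BH-adjusted p = 8.96e-05). It was 28.8 without control 3, and at least 19.98-fold higher without control 1, which held both control counts, against 3 counts over the group. Adamts6, tied to fibrillin microfibrils and to cell junctions, measured 5.39, 5.51 and 5.32 CPM, against 1.29, 1.36 and 2.05 CPM in controls (log2 fold change 1.77 ± 0.24 SE, edgeR BH-adjusted p = 0.000132).

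Adamts18 and Adamts17 fell, and in humans mutations of both are known from eye disorders. Adamts18 (chromosome 8, 113697123 to 113849343, minus strand) measured 0.144, 0.0535 and 0.0447 CPM in L-733,060 samples 1 to 3, against 7.82, 5.21 and 5.43 CPM in controls 1 to 3. With 3, 1 and 1 counts in L-733,060 samples against 169, 111 and 127 in controls, it was close to absence after the antagonist (log2 fold change -6.15 ± 0.41 SE, edgeR BH-adjusted p = 6.31e-07; log2 fold change -6.82 without L-733,060 sample 1). Adamts17 (chromosome 7, 66839699 to 67153171, plus strand) measured 1.11, 0.963 and 1.07 CPM in L-733,060 samples 1 to 3, against 5.32, 5.4 and 4.88 CPM in controls 1 to 3. Samples of each group lay close together and the groups were far apart (log2 fold change -2.30 ± 0.23 SE, edgeR BH-adjusted p = 1.39e-05). The fibrillin-binding Adamts10 did not pass (log2 fold change -0.32, edgeR BH-adjusted p = 0.206), nor did the procollagen N-proteinases Adamts2 (0.56, edgeR BH-adjusted p = 0.112) and Adamts3 (-0.67, edgeR BH-adjusted p = 0.156), nor Adamts7 (0.94, edgeR BH-adjusted p = 0.0897). For 2 of these the call depended on single samples: Adamts2 was called higher without L-733,060 sample 2 (edgeR BH-adjusted p = 0.0421) or control 3 (0.0468), and Adamts7 without control 3 (0.0375). Untested were Adamts14, the last procollagen enzyme (47 counts with L-733,060 and 15 in controls), Adamts13, which cuts von Willebrand factor (6 and 7), and Adamts19 (1 and 2).

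Of the 5 ADAMTSL genes 0 were called higher in edgeR (0 also at an unadjusted p under 0.05, and 0 in DESeq2). Adamtsl1 was the 1 called lower, beside 21.4% of all tested genes called higher and 19.9% lower. Counts this small do not set the family apart. Adamtsl1 measured 8.38, 4.07 and 4.69 CPM in L-733,060 samples 1 to 3, against 12.6, 13.5 and 14.3 CPM in controls 1 to 3 (log2 fold change -1.23 ± 0.24 SE, edgeR BH-adjusted p = 0.00177). The groups were apart, and L-733,060 sample 1 was nearest to the controls. Adamtsl4, tied in humans to the fibres that hold the lens, was the most abundant ADAMTSL gene, at 39.1 ± 10.3 TPM with L-733,060 and 36.5 ± 6.27 TPM in controls (mean ± SD, n = 3 each), and the groups overlapped (log2 fold change 0.08 ± 0.16 SE, edgeR BH-adjusted p = 0.722). Adamtsl3 had a log2 fold change of -0.44 (edgeR BH-adjusted p = 0.0683), Adamtsl2 of -0.10 (0.773) and Adamtsl5 of 0.02 (0.957).

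The 4 inhibitors differed from each other. Timp1, a soluble inhibitor of most MMPs that is induced by cytokines in many tissues (chromosome X, 20870166 to 20874737, plus strand), measured 53.8, 30.1 and 46.7 CPM in L-733,060 samples 1 to 3, against 1.57, 2.07 and 2.65 CPM in controls 1 to 3. Every L-733,060 sample lay far above the highest control, sample 2 being the lowest (log2 fold change 4.37 ± 0.26 SE, edgeR BH-adjusted p = 2.48e-07). Timp3, which is held in the matrix and also inhibits Adam17 and the ADAMTS proteoglycanases (chromosome 10, 86300412 to 86349505, plus strand), measured 65.9, 63.5 and 60.2 CPM in L-733,060 samples 1 to 3, against 130.4, 148 and 169.8 CPM in controls 1 to 3. Its L-733,060 samples were all below its controls (log2 fold change -1.24 ± 0.13 SE, edgeR BH-adjusted p = 1.55e-05). Timp2, which inhibits MMPs and takes part in the activation of the Mmp2 precursor by Mmp14 (chromosome 11, 118301061 to 118355411, minus strand), measured 119, 138 and 147 CPM in L-733,060 samples 1 to 3, against 115, 122 and 146 CPM in controls 1 to 3, with overlapping groups (log2 fold change 0.08 ± 0.13 SE, edgeR BH-adjusted p = 0.644). Timp4 had 3, 3 and 4 counts in L-733,060 samples, against 3, 4 and 2 counts in controls, and was not tested. Timp1, Timp3 and Timp4 each overlap a synapsin gene on the opposite strand. Syn1, at Timp1, did not pass (log2 fold change 0.85), Syn3, at Timp3, was lower (-0.76), and Syn2, at Timp4, was lower (-1.40).

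**Figure D4:**
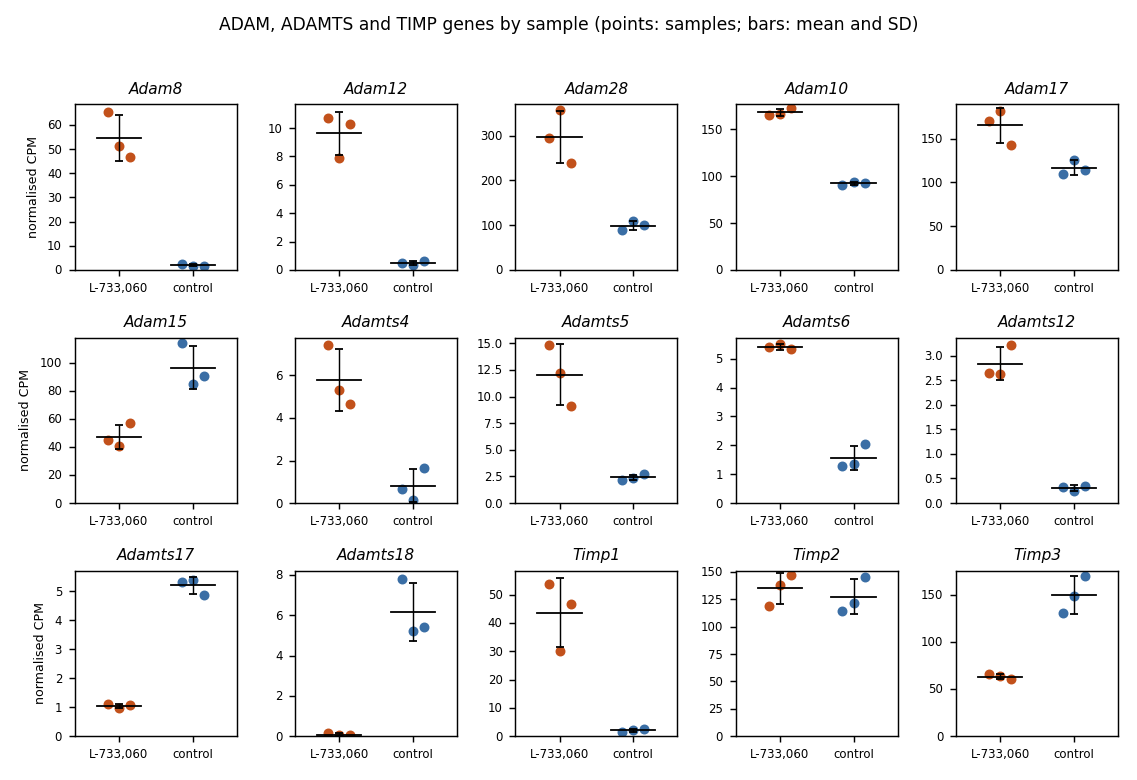
Normalised CPM of 6 ADAM, 6 ADAMTS and 3 TIMP genes in each sample, with the mean and SD of 3 samples per group and a separate axis from 0 in each panel. Timp2 is the single panel with overlapping groups, and Adam15, Adamts17, Adamts18 and Timp3 are the panels in which L-733,060 samples are lower.

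Per gene length, the families also changed in makeup. Over the 50 tested members the median log2 ratio of the group means in TPM was 0.75, with L-733,060 over control. The MMP genes summed to 490.3, 485 and 539 TPM in L-733,060 samples 1 to 3, against 247, 207 and 275 TPM in controls 1 to 3. Mmp3 and Mmp14 led in both groups: Mmp3 at 186 ± 22.4 TPM and Mmp14 at 177 ± 36.6 TPM with L-733,060 did not differ beyond their spread, whereas in controls Mmp14, at 110.1 ± 20.1 TPM, was above Mmp3, at 64.3 ± 16.2 TPM (mean ± SD, n = 3). Of the summed MMP TPM, Mmp3 made up 37.7, 43.1 and 30.5% in L-733,060 samples 1 to 3, against 20.02, 29.9 and 29.7% in controls 1 to 3. Mmp14 made up 33.6, 30.7 and 40.6% in L-733,060 samples 1 to 3, against 50.2, 42 and 43.3% in controls 1 to 3. Next with L-733,060 came Mmp2 at 40.1 ± 4.1 TPM, Mmp13 at 28.4 ± 5.73 TPM, Mmp15 at 25.5 ± 16 TPM and Mmp12 at 14.7 ± 5.15 TPM, of which Mmp15 overlapped each of the others and no others overlapped. In controls Mmp15 at 26.4 ± 5.92 TPM and Mmp2 at 22.1 ± 1.64 TPM came next and overlapped, and Mmp13, at 0.473 ± 0.243 TPM, and Mmp12, at 0.791 ± 0.253 TPM, were far below.

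The ADAM genes summed to 369, 406 and 370.5 TPM in L-733,060 samples, against 242, 217 and 226 TPM in controls. Adam28 led with L-733,060, at 126 ± 21.9 TPM, ahead of Adam17 at 76.1 ± 6.67 TPM and Adam10 at 74.9 ± 5.59 TPM, which did not differ from each other beyond their spread. In controls Adam15 led at 62.9 ± 12.7 TPM, within its spread of Adam17 at 53.2 ± 1.41 TPM, with Adam28 at 41.7 ± 2.34 TPM and Adam10 at 40.6 ± 1.39 TPM behind. The share of Adam15 in the ADAM total was 7.58, 6.43 and 10.6% in L-733,060 samples 1 to 3, against 31.8, 24 and 26.4% in controls 1 to 3. The ADAMTS genes summed to 32.1, 24.1 and 29.1 TPM in L-733,060 samples and 18.2, 20.2 and 22 TPM in controls, and the ADAMTSL genes to 42.7, 45.1 and 66.2 TPM and 55.3, 42.1 and 55.5 TPM, with overlap.

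Of the summed TIMP TPM, Timp1 held 56.2, 39.5 and 49.5% in L-733,060 samples 1 to 3, against 2.88, 3.43 and 3.75% in controls 1 to 3. Timp3 held 13.1, 15.8 and 12.1% in L-733,060 samples 1 to 3, against 45.4, 46.8 and 45.6% in controls 1 to 3. With L-733,060, Timp1 and Timp2 led and overlapped, and in controls Timp2 and Timp3 did. Timp1 was at 103 ± 28.2 TPM and Timp3 at 28.4 ± 0.231 TPM with L-733,060, and in controls Timp1 was at 4.9 ± 1.27 TPM and Timp3 at 66.5 ± 8.96 TPM (mean ± SD, n = 3). The ratio of summed MMP TPM to summed TIMP TPM was 2.27, 2.72 and 2.28 in L-733,060 samples 1 to 3, against 1.87, 1.55 and 1.64 in controls 1 to 3, and it says nothing of protein or activity.

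**Figure D5:**
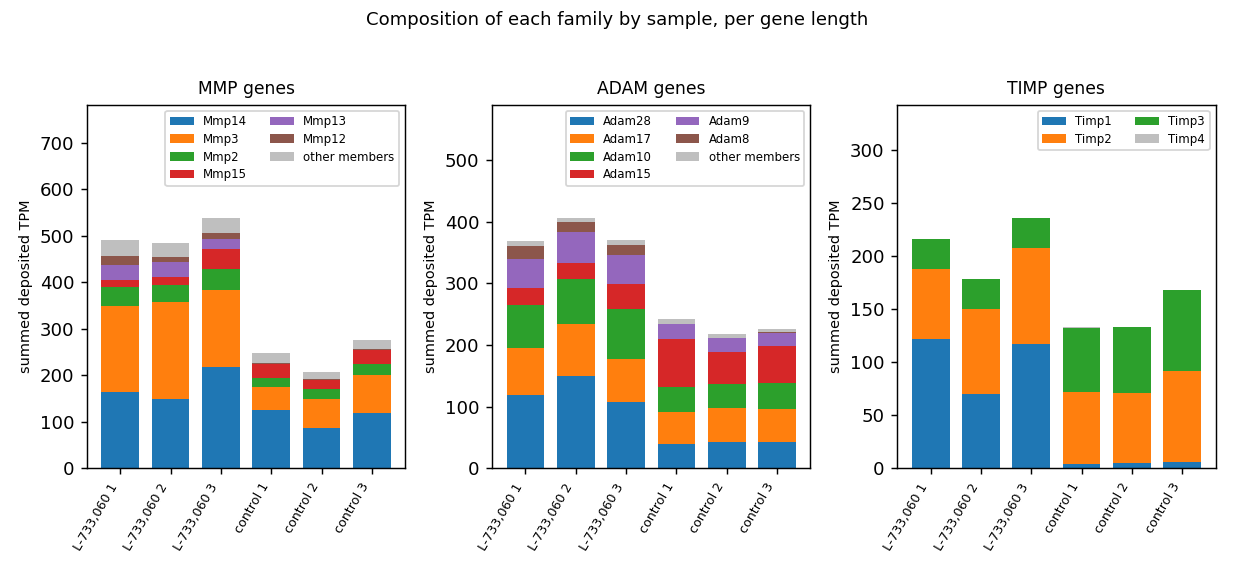
Deposited TPM of MMP, ADAM and TIMP genes stacked by gene in each sample, L-733,060 samples at the left of each panel. The MMP and ADAM totals are higher in all 3 L-733,060 samples than in any control, and Adam28 takes a larger part of the ADAM stack. Mmp3 takes a larger part of the MMP stack, but narrowly in L-733,060 sample 3 (30.5%, against 29.9 and 29.7% in controls 2 and 3). Timp1 holds 39.5 to 56.2% of the TIMP stack with L-733,060, against 2.88 to 3.75% in controls.

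Samples of a group differed in a way that crossed the members. L-733,060 sample 1 had the highest level of its group in 23 of the 50 tested members (46%), beside 29.0% of all tested genes, and control 3 in 24 (48%), beside 28.7%. Control 1 was the lowest of its group in 26 (52%), beside 36.9%. L-733,060 sample 3 was the highest of its group for Mmp14, Mmp15, Adam10, Adam15, Adamts2, Adamtsl4 and Adamtsl5, and the lowest for Mmp3, Mmp13, Adam17, Adam28, Adamts4 and Adamts5. Markers of fibroblasts and keratocytes summed to 2053 to 2759.9 CPM with L-733,060 and 2356 to 3395 CPM in controls, but all 8 were called, 3 as lower (Kera, Dcn and Lum, log2 fold changes -2.78, -2.02 and -1.25) and 5 as higher (Col3a1, Thy1, Pdgfra, Col1a1 and Col1a2, 0.57 to 2.95). Markers of smooth muscle and pericytes summed to 147 to 213 CPM with L-733,060 and 29.2 to 30.7 CPM in controls. Most of that sum was Acta2, at 145 ± 30.3 CPM with L-733,060 and 12.2 ± 1.86 CPM in controls (mean ± SD, n = 3 each). Tagln and Rgs5 were higher as well, while Myh11, the smooth muscle myosin, was lower (log2 fold change -0.96, edgeR BH-adjusted p = 0.021) and Des did not pass. The part of these markers in the members' values was not tested.

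Genes that activate or restrain these proteases, from lists chosen with earlier results of these data known, moved both ways; their counts stand beside the 41.3% called and the median of -0.002 over all tested genes. Of 20 tested genes of MMP activation and control, 10 rose and 3 fell, with a median log2 fold change of 0.63 (7 fell without L-733,060 sample 3). Serpinb2, an inhibitor of plasminogen activators, rose by log2 4.20 and Plaur, the urokinase receptor, by 2.67, while the proprotein convertase Pcsk6 fell by 1.82 on the log2 scale (edgeR BH-adjusted p = 4.02e-07, 3.61e-05 and 3.89e-06). Plg, the gene of plasminogen itself, had no counts. The general protease inhibitor A2m, named after its values were seen, fell by 1.33 on the log2 scale, and the membrane-bound MMP inhibitor Reck did not pass (log2 fold change -0.57, edgeR BH-adjusted p = 0.0516).

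Of 9 tested partners of Adam10 and Adam17, 1 rose and 4 fell (median -0.36). Among the tetraspanins that carry Adam10 to the surface, Tspan15 fell to 8.45 ± 2.47 CPM with L-733,060, against 32.7 ± 2.34 CPM in controls (log2 fold change -1.95, edgeR BH-adjusted p = 1.16e-05), Tspan5 fell by 0.61 on the log2 scale and Tspan14 rose by log2 0.54 (edgeR BH-adjusted p = 0.00377 and 0.00297). Rhbdf1, an iRhom that escorts Adam17, fell by 0.86 on the log2 scale (edgeR BH-adjusted p = 0.00238), and its relative Rhbdf2 did not pass (log2 fold change -0.16). Of 27 proteins known to be shed, 8 rose and 7 fell (median 0.05; 4 fell without control 1). Icam1, an adhesion receptor of leukocytes, rose by log2 2.09, Il1r2, a decoy receptor of interleukin 1, by 1.72, and Tnfrsf1b, a receptor of tumour necrosis factor, by 3.18 (edgeR BH-adjusted p = 6.46e-06, 3.26e-05 and 1.82e-05).

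Of 13 tested substrates of the ADAMTS enzymes, 10 rose and 0 fell in edgeR (median 0.97; 0 also fell at an unadjusted p under 0.05, and 0 in DESeq2). Without control 1, 6 rose. Vcan, versican, the hyaluronan-binding proteoglycan that the proteoglycanases cut, measured 43.3, 41.1 and 31 CPM in L-733,060 samples 1 to 3, against 0.879, 0.846 and 2.05 CPM in controls 1 to 3. It was higher in every L-733,060 sample (log2 fold change 4.91 ± 0.29 SE, edgeR BH-adjusted p = 2.48e-07). Col3a1, collagen type III, rose by log2 2.95, Ltbp1, a matrix anchor of latent TGF-beta, by 2.48 and the fibrillin Fbn2 by 2.80 (edgeR BH-adjusted p = 1.08e-06, 1.14e-06 and 8.34e-05).

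Of 8 tested relatives and enhancers outside the members (astacin-type and pappalysin-type metzincins and their partners), 3 rose and 3 fell (median 0.10). Bmp1, which removes the C-terminal propeptide of procollagens, rose by log2 1.17, and Pcolce2, an enhancer of that step, fell by 2.28 on the log2 scale (edgeR BH-adjusted p = 6.79e-05 and 8.78e-05). Thsd4, an ADAMTSL-type protein of microfibrils, fell by 1.00 on the log2 scale (edgeR BH-adjusted p = 0.00307). Pappa, a pappalysin, had 364 counts with L-733,060 and 0 in controls, at least 130.1-fold higher against 3 counts over the controls (78.5-fold without L-733,060 sample 1, 84.2-fold without control 3).

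The 35 members that did not pass the filter held few reads. Of these, 11 ADAMs of the testis had no counts in any sample: Adam2, Adam6a, Adam6b, Adam20, Adam24, Adam25, Adam26a, Adam26b, Adam29, Adam34 and Adam34l. The other 24 had at most 47 counts over the L-733,060 samples and 27 over the controls. Without a filter on low counts, edgeR called Mmp10 (log2 fold change 2.82, adjusted p = 0.0200) and Adamts14 (1.67, adjusted p = 0.0179) higher and Adam7 lower (0 counts with L-733,060, against 10 in controls, all in control 3, adjusted p = 0.0401). Adam18 had 0 counts with L-733,060 and 5 in controls and Adam1b 0 and 8, and neither was called (edgeR BH-adjusted p = 0.176 and 0.0708). Closely related copies (Adam1a and Adam1b, Adam6a and Adam6b, Adam26a and Adam26b, Mmp1a and Mmp1b) can split reads, so their single values are uncertain.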

How the data were processed

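RNA from the corneal limbus of 3 L-733,060 and 3 control samples was sequenced after poly(A) selection, per the labels' protocols. The authors ran bcl2fastq, HISAT2 2.1.0 and HTSeq 0.11.2 with genome build mm10, per the submitters' processing notes (options, strand use and annotation release: not given in the sources used here). Deposited are raw counts per gene and sample. TPM, also deposited by the authors, match counts per base of their gene length (other) after rescaling to within 4.96e-06. Positions of all 85 members match RefSeq for GRCm38.p6.

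In R 4.3.3, edgeR 4.0.16 kept genes by filterByExpr (minimum count 10, total 15), scaled by TMM and compared the groups in a two-sided quasi-likelihood F test with Benjamini-Hochberg adjustment over 15712 genes. Standard errors are the absolute log2 fold change over the root of F. The fit was tested on simulated counts with known fold changes. Alternatives were DESeq2 1.42.0, other scalings, no filter, a replicate block and leaving out each sample. Counts of samples within a group differed beyond sampling noise (chi-square over degrees of freedom 15.0 to 38.7), so each was counted as 1 sample, which does not show that they come from separate mice. Intervals and floors cover counting error only. Members, lists and tests were chosen with earlier results of these data known. Values per sample were to be given for the 10 largest rises and falls with a group mean of at least 1 CPM, all Timp genes, Mmp2, Mmp9, Mmp14, Adam10 and Adam17, and per pathway list the 4 genes of smallest p (some are not reported here); further genes, among them Mmp3, Adam28 and other members, A2m, Reck and Rhbdf2, were added after their values were seen, as were the promoters and motifs.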

Additional observations from a re-analysis of the deposited data

How the results depend on the processing

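All 34 called members kept call and direction with DESeq2 size factors, with library totals (under which the median of all genes was 0.052 and not -0.002), without the filter, in the DESeq2 Wald test and with a replicate block. With 1 sample left out, 30 to 34 of the 34 kept their call, 23 to 29 members passed as higher and 6 to 8 as lower, and the calls lost were of Adamts1, Adamts9, Mmp7, Mmp23 and Adam33. Lower ADAM genes numbered 4 without the filter and 1 to 3 with a sample left out, against 2 in all; lower MMP genes 1 to 2 against 1; and lower genes of the pathway lists together 14 to 26 against 17. Replicate numbers were not shown to pair samples: same-numbered samples correlated at -0.02, 0.27 and 0.13 in their deviations, and L-733,060 sample 1 did not correlate best with control 1. With the replicate block 28 members passed as higher and 9 as lower, 2 of these 9 ADAMTSL genes (Adamtsl1 and Adamtsl3), and Adam1a and Adamts2 were called as well. Signs turned for members not past the threshold. With a sample left out, Adam4 ranged from -0.138 (without control 3) to 0.763, Adamtsl2 from -0.228 to 0.017 (without control 2), Adamtsl4 from -0.118 (without L-733,060 sample 3; also negative without control 2) to 0.176, Adamtsl5 from -0.35 (without L-733,060 sample 3; also negative without control 2) to 0.18, and Mmp15 from -0.672 (without L-733,060 sample 3) to 0.159 (without L-733,060 sample 1; also positive without L-733,060 sample 2 or control 3), and Adamtsl5 was -0.023 with the replicate block. The causes were not tested. The median log2 ratio per length was 0.75 in deposited TPM and 0.73 in TMM-scaled CPM per kilobase. Of the 35 members under the filter, the fit without it called Mmp10, Adamts14 and Adam7, each with few counts, and the others with reads had too few counts for their lack of a call to show that they did not differ.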
